A study of Mus musculus with 8 samples.

Results

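Genes of the p53 response and of the BCL2 family, 10 in all, were followed in CD8 T cells sorted from mouse mammary tumours: Cdkn1a, Mdm2, Ccng1, Bax, Bbc3, Pmaip1, Bcl2, Bcl2l1, Mcl1 and Bcl2l11. They were taken by name, and all 10 were found among the 19673 genes listed. The tumours were grown from injected Py8119 cells, a mouse mammary tumour line, in hosts lacking Mtdh (metadherin), called KO, or in wild-type hosts, called WT. The study sorted 4 biological replicates of each group, numbered 1 to 4 after the group's name below (KO library 1). The sort took live CD45+CD3e+CD8+ cells, which belong to the host and so carry its genotype. The labels state the host genotype only, with no age, sex or strain of the mice. KO was compared with WT to see what Mtdh loss in the host does to gene expression in these cells.

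The transcription factor p53 is held low by the ubiquitin ligase Mdm2 and is released by DNA damage and other stress. It then raises genes that stop the cell cycle, such as Cdkn1a, and genes that start cell death, such as Bax, Bbc3 (PUMA) and Pmaip1 (NOXA), and it also raises Mdm2 itself, which closes a feedback loop. Proteins of the BCL2 family decide whether the outer mitochondrial membrane is opened: Bcl2, Bcl2l1 (BCL-XL) and Mcl1 keep it closed, Bax opens it, and the BH3-only proteins Bbc3, Pmaip1 and Bcl2l11 (BIM) counter the protectors. In T cells the balance of Bcl2l11 against Bcl2 and Mcl1 sets survival after activation, and Cdkn1a, an inhibitor of cyclin-dependent kinases, is also induced by T cell activation and by other signals that do not need p53.

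p53 binds DNA as a pair of decamers, and promoter letters are shown to make clear which of the measured p53 targets carry such a decamer close to an annotated start and how differently those genes behaved. RefSeq start windows on GRCm38.p6, from 250 bases before to 50 after a start, were found for 9 of the 10 genes. The p53 consensus decamer, which is its own reverse complement and so was searched on both strands at once, was matched exactly in 4 of their 15 windows (26.7%), and in 2745 of 32851 windows of all genes (8.36%). The 4 windows belong to Cdkn1a, Mdm2, Ccng1 and Bax. That of Cdkn1a, at the first of its annotated starts, 2790 bases before the other one, held 2 decamers, as did 0.359% of all windows. Stretches upstream of the start are given 5′ to 3′ on the strand of the gene, with the decamers in capitals.
Cdkn1a, chr17:29090881-29090962, plus strand, decamers beginning at -73 and -51 from the start: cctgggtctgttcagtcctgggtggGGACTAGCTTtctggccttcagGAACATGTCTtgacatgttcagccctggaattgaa
Mdm2, chr10:117710910-117710969, minus strand, decamer at -186: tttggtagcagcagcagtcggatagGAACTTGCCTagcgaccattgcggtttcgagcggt
Ccng1, chr11:40755437-40755496, minus strand, decamer at -185: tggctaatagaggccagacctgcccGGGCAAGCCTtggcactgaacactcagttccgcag
Bax, chr7:45467065-45467124, minus strand, decamer at -201: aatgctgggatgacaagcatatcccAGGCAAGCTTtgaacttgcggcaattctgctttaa
No window of Bbc3, Bcl2, Bcl2l1, Mcl1 or Bcl2l11 held an exact match. Decamers with any mismatch were not marked, so the 2 marked for Cdkn1a, which are not adjacent, need not be the pair that p53 binds. A match describes the letters only, and p53 binding was not measured here.

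The values are estimated read counts per gene that the authors normalized with DESeq2, called normalized values below. As strand use in counting is not given in the sources used here, reads of antisense genes cannot be told apart from those of the genes named. Depth was estimated at 16400000 to 29600000 reads per library, of which small RNAs held 27.6% to 35.2%. The other genes were estimated to rest on 115000 to 643000 cDNA fragments. By that estimate 1 fragment is worth a normalized value of about 23.6 to 149, depending on the library. This worth is an average, and some listed values lie below it. Mtdh lay lower in all 4 KO libraries (2538 to 5118) than in any WT library (6407 to 12745), a log2 difference of -1.23 (SE 0.25) with an adjusted p by limma of 0.04 and a two-sided exact permutation p of 0.0286, the smallest that 70 arrangements allow. That adjusted p exceeded 0.05 without KO library 2, 3 or 4 or without WT library 1 or 2, reaching 0.241. Mtdh RNA thus remained in every KO library, at 0.426 of the WT level by the limma fit, and its source was not tested. The CD8 T cell gene Cd8a was detected in every library, between 7561 and 13355 in KO and between 1565 and 6545 in WT. The macrophage gene Lyz2 was higher still, at 57175 to 160747 per kilobase of exons against 430 to 3672 for Cd8a, so RNA that CD8 T cells are not known to make was present in every library. In such mixed samples, fewer cells of a type and less RNA per cell cannot be told apart.

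Cdkn1a, the cell cycle inhibitor p21, was the only one of the 10 genes whose values did not overlap between the groups. Its normalized value was 2011, 2216, 1529 and 2374 in KO libraries 1 to 4, and 590, 964, 844 and 976 in WT libraries 1 to 4. Every KO library was above every WT library, with the lowest KO value, in library 3, still well over the highest WT value, in library 4. The KO mean was 2032 ± 367 (SD, n = 4), against a WT mean of 843 ± 179 (SD, n = 4). On the log2(value + 1) scale KO exceeded WT by 1.28 (SE 0.28, 95% interval 0.70 to 1.85), or 2.42-fold. Its limma adjusted p over 16120 tested genes was 0.0594, which missed the threshold of 0.05, and it stood at place 43 of all genes by unadjusted p (1.59e-04). Exchanging the group labels in all possible ways gave an exact permutation p of 0.0286 (two-sided), the lowest this design can reach. The gene (ENSMUSG00000023067) lies on chromosome 17, 29309950 to 29319701 of mm39, on the plus strand, and its values rest on 9.54 to 61.7 estimated fragments per library.

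**Figure D1:**
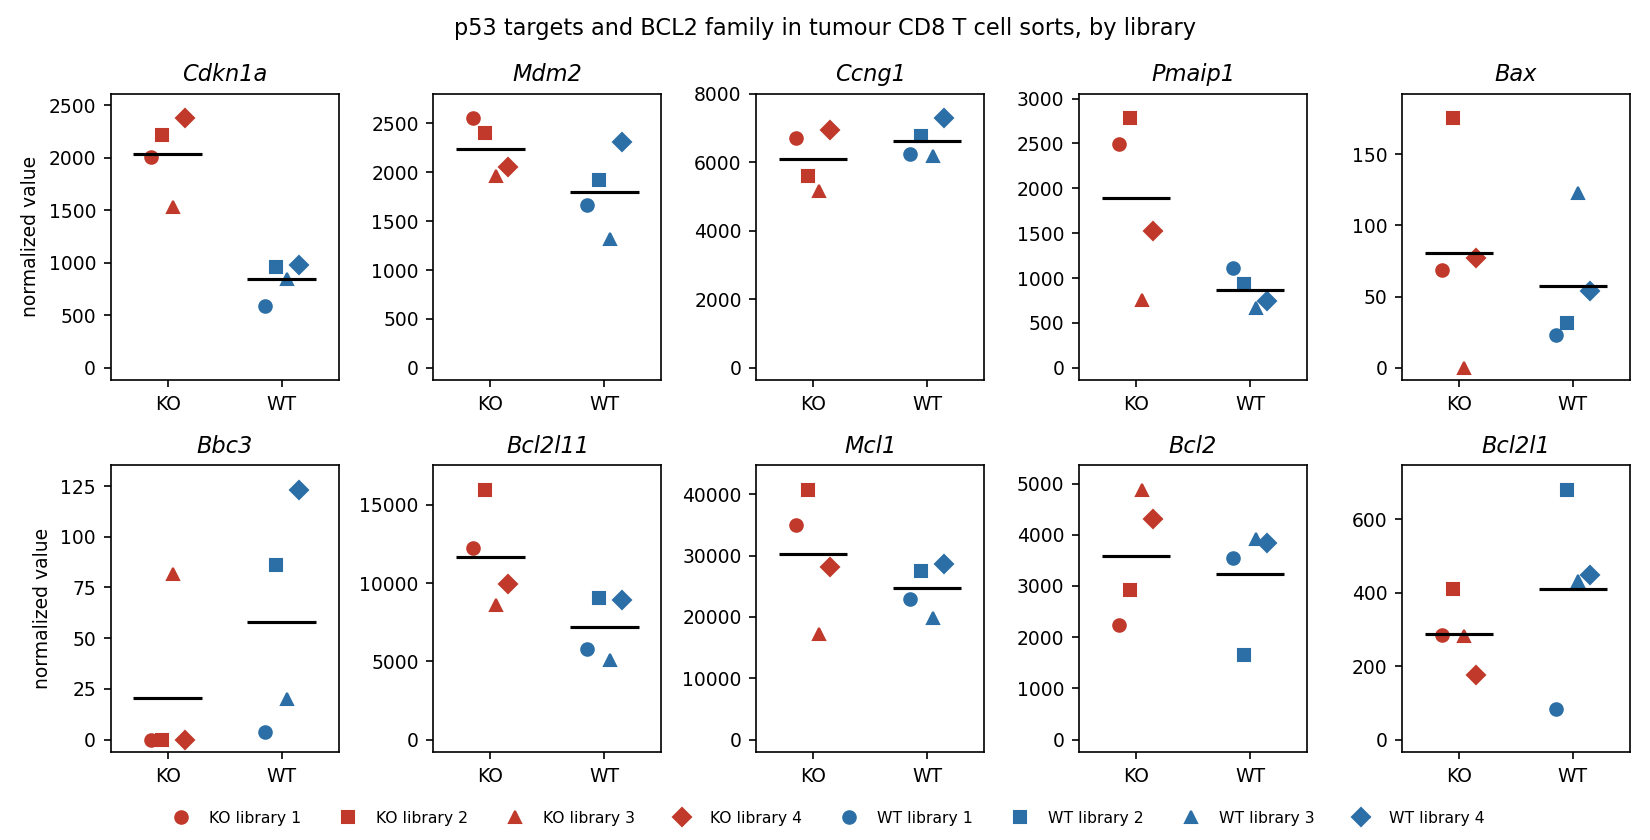
Normalized values of the 10 genes (vertical axes from 0, scaled per gene) in the 4 KO (red) and 4 WT (blue) libraries, with a symbol per library number and a bar at the group mean. Only Cdkn1a separates the groups, with KO at 1529 to 2374 and WT at 590 to 976.

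The Cdkn1a call depended on the fit. The adjusted p passed 0.05 with a pseudocount of 10 (0.0342), with sample weights (0.00454), with robust hyperparameters (0.0467), without KO library 3 (0.0327) or without WT library 4 (0.0493), and was highest, at 0.561, in the fit without an intensity trend. The log2 difference itself lay between 1.11 and 1.41 in all 20 alternatives, which cover pseudocount, filter, scaling, fit and each library left out.

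Of the 10 genes, 0 passed the limma threshold over all genes, in which 38 of 16120 genes passed (0.236%), 34 higher and 4 lower in KO. At an unadjusted limma p under 0.05 there were 3 of the 10, Cdkn1a, Bcl2l11 and Pmaip1, all higher in KO, against 6.7% of all tested genes. Groups did not overlap for 1 of the 10, Cdkn1a, against 4.11% of all tested genes. The median log2 difference of the 10 was 0.20, with 6 positive, beside a median of -0.12 over all tested genes.

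No other p53 target among the 10 genes separated the groups. Mdm2 (ENSMUSG00000020184, chromosome 10, 117524780 to 117546663, minus strand of mm39), the ligase that returns p53 to a low level, had normalized values of 2549, 2404, 1961 and 2053 in KO libraries 1 to 4 and 1660, 1916, 1319 and 2312 in WT. The highest WT library, 4, lay above KO libraries 3 and 4, so the groups overlapped. KO minus WT was 0.34 on the log2 scale (SE 0.24, 95% interval -0.17 to 0.84), with an adjusted p by limma of 0.783.

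Ccng1 (ENSMUSG00000020326, chromosome 11, 40639379 to 40646138, minus strand of mm39), which encodes cyclin G1 and is a well-known p53 target, had values of 6697, 5614, 5155 and 6931 in KO and 6239, 6768, 6198 and 7282 in WT. The groups lay over each other, with the highest value in WT library 4 and the lowest in KO library 3. The log2 difference was -0.13 (SE 0.19), with an adjusted p by limma of 0.908, and its 95% interval of -0.53 to 0.27 lies wholly below that of Cdkn1a.

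Pmaip1 (ENSMUSG00000024521, chromosome 18, 66591604 to 66598636, plus strand of mm39), the BH3-only protein NOXA, which binds and removes MCL1, was at 2495, 2778, 757 and 1521 in KO libraries 1 to 4 and at 1111, 932, 667 and 749 in WT. Of the KO libraries, 1, 2 and 4 were above every WT library, whereas KO library 3 lay within the WT range. By limma the log2 difference was 0.99 (SE 0.36, 95% interval 0.24 to 1.73), with an unadjusted p of 0.0121 and an adjusted p of 0.604. It was 1.37 without KO library 3 and 0.74 without KO library 2, and passed in none of the 8 fits with a library left out.

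Bax and Bbc3, both direct inducers of mitochondrial death, were too low to compare. Bax (ENSMUSG00000003873, chromosome 7, 45111121 to 45116322, minus strand of mm39) was at 68.7, 175, 0 and 77.4 in KO libraries 1 to 4 and 23.3, 31.2, 123 and 53.6 in WT, which is 0 to 5.21 estimated fragments per library. Bbc3 (ENSMUSG00000002083, chromosome 7, 16042318 to 16052130, plus strand of mm39) was listed at 0 in KO libraries 1, 2 and 4 and at 81.8 in KO library 3, and was at 3.72, 86.1, 20.1 and 123 in WT, or at most 3.73 fragments. Values this close to a single fragment give no usable fold change, and a difference of either gene was not detectable at this depth.

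Among the BCL2 family genes that were well measured, Bcl2l11 had the smallest p. This gene (ENSMUSG00000027381, chromosome 2, 127967958 to 128004467, plus strand of mm39) encodes BIM, the BH3-only protein that removes T cells after activation or loss of cytokine. Its normalized value was 12254, 15940, 8601 and 9948 in KO libraries 1 to 4 and 5774, 9038, 5109 and 8934 in WT. KO libraries 1, 2 and 4 were above every WT library, and KO library 3 lay just under WT libraries 2 and 4. KO minus WT was 0.70 on the log2 scale (SE 0.24, 95% interval 0.21 to 1.20), or 1.63-fold, with an unadjusted p of 0.00781 and an adjusted p of 0.516 by limma. The highest value came from KO library 2, which had the fewest estimated fragments of all libraries (115000). Without that library the difference was 0.54 (adjusted p by limma 0.814), the lowest of the fits with a library left out (0.54 to 0.84).

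Mcl1 (ENSMUSG00000038612, chromosome 3, 95566099 to 95570487, plus strand of mm39), the short-lived protector, was by far the most abundant of the 10 genes. It was at 34898, 40658, 17229 and 28073 in KO and 22878, 27536, 19830 and 28638 in WT. KO library 2 was highest and KO library 3 lowest, so the WT values lay inside the KO range. The groups differed by 0.23 on the log2 scale (SE 0.25, 95% interval -0.28 to 0.75), with an adjusted p by limma of 0.837.

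Bcl2 (ENSMUSG00000057329, chromosome 1, 106465908 to 106642004, minus strand of mm39), the protector of resting and memory T cells, was at 2243, 2926, 4872 and 4309 in KO libraries 1 to 4 and at 3548, 1661, 3921 and 3831 in WT. The spread within each group was wide, with WT library 2 far below the other WT libraries and KO library 3 the highest of all. The log2 difference was 0.16 (SE 0.29, 95% interval -0.45 to 0.77), with an adjusted p by limma of 0.93, and it turned to -0.14 without WT library 2 and to -0.01 without KO library 3.

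Bcl2l1 (ENSMUSG00000007659, chromosome 2, 152622588 to 152673648, minus strand of mm39), which encodes BCL-XL, was at 285, 411, 281 and 176 in KO and 84.6, 679, 433 and 447 in WT, values that rest on 1.37 to 18.3 estimated fragments. WT libraries 1 and 2 held both the lowest and the highest value. KO minus WT was -0.24 on the log2 scale (SE 0.63), with a 95% interval of -1.55 to 1.07 that allows either sign and an adjusted p by limma of 0.958, and it was 0.12 without WT library 2 and -0.88 without WT library 1.

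**Figure D2:**
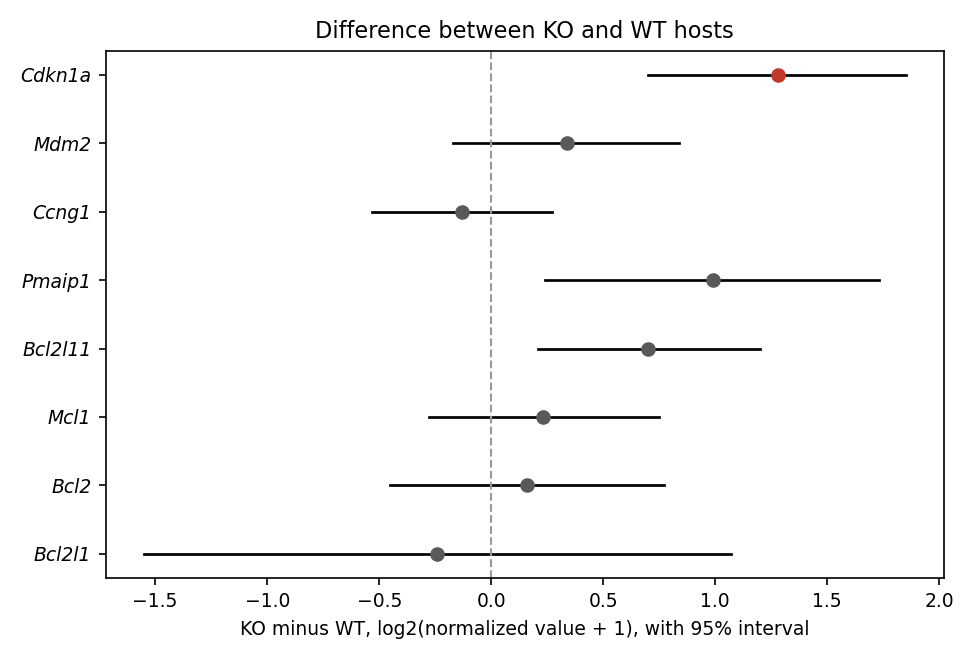
KO minus WT difference in log2(normalized value + 1), as fitted by limma (points) with its 95% interval (lines), for the 8 genes measured above a few fragments. The intervals of Cdkn1a (0.70 to 1.85), Pmaip1 (0.24 to 1.73) and Bcl2l11 (0.21 to 1.20) lie above 0, before adjustment over all genes, and those of the other 5 genes include 0.

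Ratios within a library do not depend on how libraries are scaled against each other, so 6 were compared, chosen after the values were known. The log2 ratio of Cdkn1a to Ccng1 averaged -1.59 ± 0.19 (SD, n = 4) for KO, against -3.00 ± 0.27 (SD, n = 4) for WT. All 4 KO libraries (-1.75 to -1.34) were above all 4 WT libraries (-3.40 to -2.81), a difference of 1.40 (exact two-sided permutation p = 0.0286, adjusted over the 6 ratios 0.0571). The ratio of Cdkn1a to Mdm2 averaged -0.15 ± 0.26 (SD, n = 4) for KO, against -1.09 ± 0.36 (SD, n = 4) for WT, again without overlap, and differed by 0.94 (exact permutation p = 0.0286, adjusted 0.0571). Cdkn1a relative to Pmaip1 overlapped between the groups and differed by 0.29 (exact permutation p = 0.6286, adjusted 0.7543). Against both Ccng1 and Mdm2 Cdkn1a stood higher in each KO library, while against Pmaip1 it did not separate the groups. These ratios were chosen with the separation of Cdkn1a known and share its values. They are not further evidence for that separation.

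Bcl2l11 relative to Mcl1, a BH3-only gene against a protector it binds, also separated the groups. The log2 ratio was -1.51, -1.35, -1.0 and -1.5 in KO libraries 1 to 4 and -1.99, -1.61, -1.96 and -1.68 in WT, with a difference of 0.47 (exact permutation p = 0.0286, adjusted 0.0571). KO library 3, the lowest in both genes among the KO libraries, had the highest ratio. Bcl2l11 relative to Bcl2 differed by 0.54 with wide overlap (exact permutation p = 0.3429, adjusted 0.5143), and Mcl1 relative to Bcl2 by 0.08 (exact permutation p = 0.9143, adjusted 0.9143). No ratio passed after adjustment, and with 4 libraries a group the smallest unadjusted p is 0.0286.

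**Figure D3:**
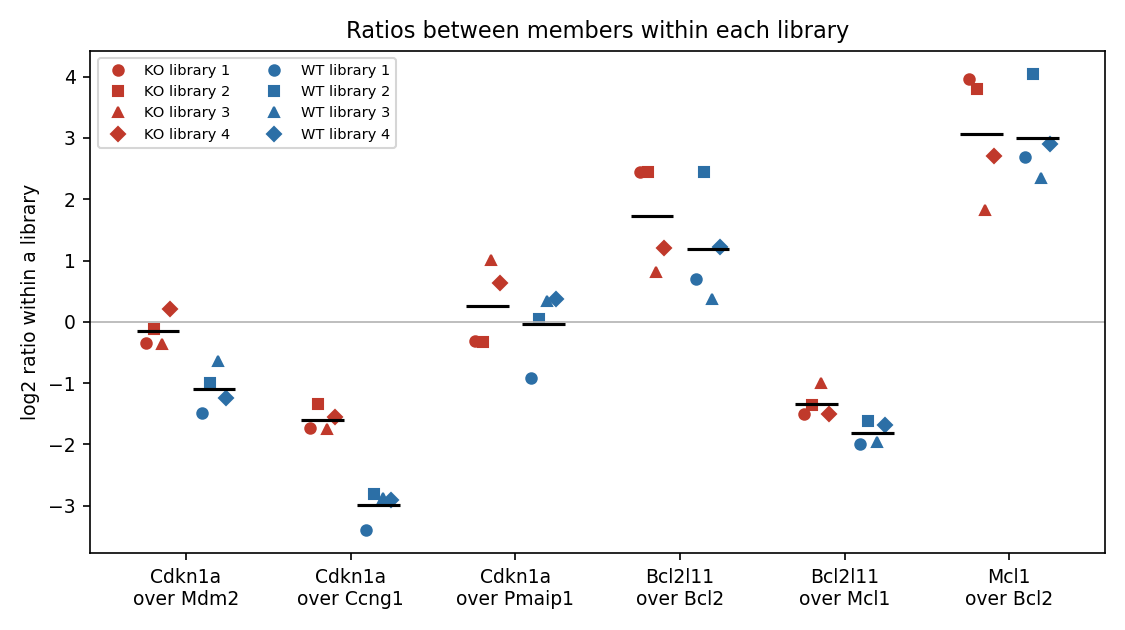
Log2 ratios between pairs of genes within each library (vertical axis), by group (KO red, WT blue), with a symbol per library and a bar at the group mean. The groups are apart for Cdkn1a over Mdm2, Cdkn1a over Ccng1 and Bcl2l11 over Mcl1, and overlap for the other 3 ratios.

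Levels of different genes were compared per kilobase of exons, as means over the 8 libraries. Mcl1 stood first at 8036 ± 2253 per kilobase (SD, n = 8), 4.44 times Ccng1 at 1811 ± 202 (SD, n = 8), and was above it in 8 of 8 libraries. Bcl2l11 followed at 1177 ± 431 (SD, n = 8) and was under Ccng1 in 7 of 8 libraries. Pmaip1 (504 ± 303), Cdkn1a (405 ± 194), Mdm2 (398 ± 79.7) and Bcl2 (373 ± 117, SD, n = 8 each) did not differ beyond their spread over KO and WT together. Each but Bcl2 held its place over the next in only 4 or 5 of 8 libraries. The spread of Cdkn1a includes its difference between the groups, and its ratio to Mdm2 was higher in every KO library than in any WT library. Bcl2l1 (76.2 ± 40.2 per kilobase), Bax (43.8 ± 36.2) and Bbc3 (18.5 ± 23.4, SD, n = 8 each) came last. Bcl2 was 4.89 times Bcl2l1 per kilobase and above it in 8 of 8 libraries. Among the protectors the order was thus Mcl1, Bcl2, Bcl2l1.

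**Figure D4:**
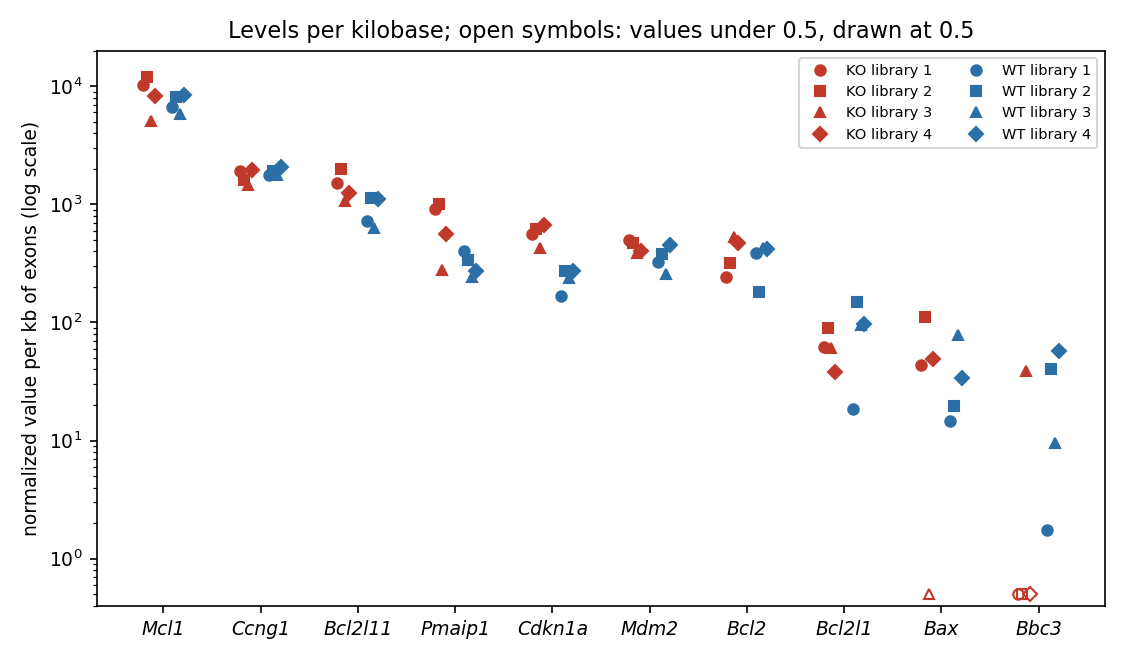
Normalized value per kilobase of exons (log axis) for the 10 genes in order of their mean, with a symbol per library, KO in red and WT in blue. Mcl1, at 8036 on average, lies above all other genes in every library, and 4 values of Bax and Bbc3 listed at 0 are drawn as open symbols at the foot of the axis.

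Bcl2 was set against the amount of CD8 T cell RNA, since its values spread widely within each group. Summed over 12 CD8 T cell markers, the normalized value was lowest in WT library 2 (7903) and highest in KO library 3 (45036), the same libraries in which Bcl2 was lowest and highest. Over the 8 libraries Pearson's r between log2 values was 0.85 (exact permutation p = 0.00761) and Spearman's rho 0.79 (exact permutation p = 0.0279), but over the 16 relations computed, of 8 genes with the summed CD8 and the summed macrophage markers, its adjusted p was 0.122 and none passed. Without WT library 2 and KO library 3, r was 0.38, so the relation rests on those libraries. Mcl1 showed no such order over the 8 libraries (r = -0.16, exact permutation p = 0.718). Without the same libraries its r was 0.42, so the contrast between Bcl2 and Mcl1 rests on them too. For Cdkn1a, r with the CD8 markers was 0.46 (exact permutation p = 0.255), and 0.64 without WT library 2 and KO library 3. With the macrophage markers it was -0.43 (exact permutation p = 0.296).

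**Figure D5:**
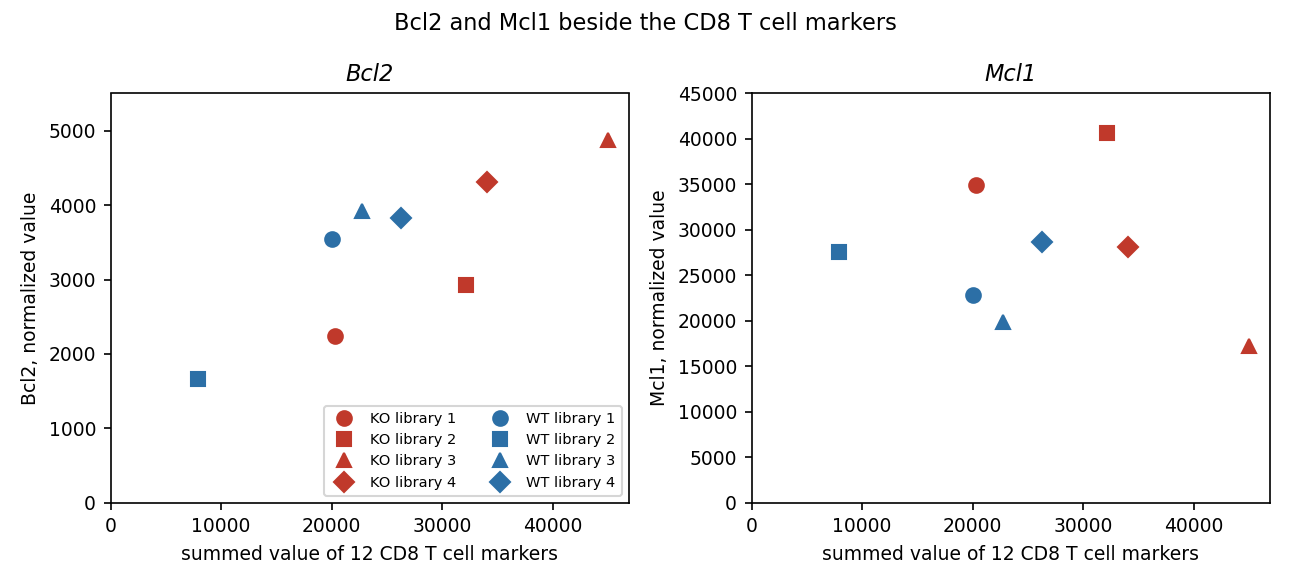
Normalized value of Bcl2 (left) and Mcl1 (right) against the summed normalized value of 12 CD8 T cell markers, 1 point per library, KO in red and WT in blue. Bcl2 runs from 1661 in WT library 2, with the lowest marker sum, to 4872 in KO library 3, with the highest. Mcl1 shows no such order over the 8 libraries. Without those libraries r was 0.38 for Bcl2 and 0.42 for Mcl1.

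Markers of other cells were set beside Cdkn1a, which many cell types express. The 12 CD8 T cell markers had a median log2 difference of 0.72 and the 14 macrophage and monocyte markers one of -0.44, beside -0.12 over all tested genes, with 0 past the threshold in both lists. Cd8a lay higher in every KO library than in any WT library (log2 difference 1.15, unadjusted p by limma 0.00292, adjusted 0.327), and Cd3e differed by 1.31 with overlap (unadjusted p by limma 4.65e-04, adjusted 0.116). The summed values overlapped for CD8 T cells (20343 to 45036 in KO, 7903 to 26245 in WT) and for macrophages and monocytes (115983 to 260116 in KO, 195283 to 301397 in WT). The 9 dendritic cell markers, summed, did not overlap, between 60346 and 155495 in KO and between 22289 and 57303 in WT. Of them, Cd74, H2-Aa and H2-Eb1 passed the threshold in the reported fit, all higher in KO, but not with a replicate block. Those 3 genes act in antigen presentation by MHC class II, which macrophages use too. H2-Ab1, also an MHC class II gene of the list, did not pass. Of the other dendritic cell markers, Xcr1 (77.4 to 753 in KO, 167 to 316 in WT) and Itgax (452 to 1092 and 284 to 530, log2 difference 0.90, unadjusted p by limma 0.0378) were present in every library. Zbtb46 lay between 1.1 and 474 in KO and between 115 and 253 in WT, and Flt3 (0 to 390 and 0 to 51) and Clec9a (0 to 468 and 0.946 to 76.3) were at or near 0 in several libraries. The 5 markers of CD4 and regulatory T cells, summed, did not overlap either (4703 to 7007 in KO, 1931 to 2942 in WT). Most of that sum was Ikzf2 (3795 to 6052 in KO, 1639 to 2802 in WT). Il2ra and Ikzf2 were past the threshold in the reported fit, but neither was in every fit, as no gene passed with a replicate block. Cd4 overlapped between the groups (11 to 122 in KO, 0 to 169 in WT). Foxp3, at 0 in 6 of 8 libraries, and Cd40lg were too low to be tested. Summed markers overlapped for fibroblasts, endothelium, tumour epithelium, B cells, NK cells, neutrophils, and red cells and platelets. The part of these cells in the Cdkn1a values was not tested.

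The genes whose pattern over the 8 libraries was most like that of Cdkn1a were Cxcl9, Dcstamp, Cd274, Gbp3 and Ikzf2. They had the highest Pearson r among 7556 named protein-coding genes with a mean of at least 200, and are given as a description with no p, since they were picked for it. Cxcl9, an interferon-induced chemokine, had r = 0.986 and rho = 0.929, and r = 0.91 when deviations from each group's mean were used. By such deviations r was 0.90 for Dcstamp, 0.90 for Cd274, 0.80 for Gbp3 and 0.76 for Ikzf2. Cxcl9 and Dcstamp rest on few estimated fragments where they are lowest (2.27 and 2.32). Dcstamp, a fusion protein of myeloid cells, had r = 0.982, and Cd274, which encodes the checkpoint ligand PD-L1, had r = 0.980. Gbp3, an interferon-induced GTPase of a family with similar members, had r = 0.967. Ikzf2, the transcription factor Helios, had r = 0.960, and its adjusted p by limma of 0.0379 exceeded 0.05 when any of KO libraries 1, 2 and 4 or WT libraries 1, 2 and 3 was left out (up to 0.264). The Ikzf2 call was also lost with a minimum mean of 50 (0.0608), upper-quartile scaling (0.0507), scaling to genes other than small RNAs (0.0561), a replicate block (0.0926) or no intensity trend (0.665). Without WT library 1 and KO library 4, the farthest from the median of Cdkn1a, r was 0.93 to 0.98. The normalized value of Cd274 was 8236, 7524, 4863 and 7867 in KO libraries 1 to 4 and 1982, 3759, 2409 and 3378 in WT, which differ by 1.32 on the log2 scale (SE 0.24) with an adjusted p by limma of 0.0179. That p exceeded 0.05 without KO library 1, 2 or 4 or WT library 1 or 3 (up to 0.151), and also with a minimum mean of 50 (0.0538), a replicate block (0.0851) or no intensity trend (0.64). As with Cdkn1a, KO library 3 was the lowest KO library and WT library 1 the lowest of all.

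Other p53 targets, 30 in a list drawn from general knowledge, differed by a median of -0.09 on the log2 scale, with 12 positive and 18 negative, and 0 passed the limma threshold in either direction (1 at an unadjusted p under 0.05). That one was Tnfrsf10b, a TRAIL death receptor, at 295, 975, 708 and 401 in KO and 412, 187, 153 and 176 in WT, with overlapping groups (log2 difference 1.32, SE 0.54, adjusted p by limma 0.688). Ddb2, a sensor of damaged DNA, was next by p and lay between 0 and 291 in KO and between 87.3 and 286 in WT, on 7.07 fragments or fewer. Btg2, an antiproliferative gene, was the most abundant of the list per kilobase, between 9036 and 13274 in KO and between 7492 and 12027 in WT as a normalized value (log2 difference 0.24, SE 0.21, adjusted p by limma 0.818). None of the 30 separated the groups as Cdkn1a did. Over all tested genes 4.11% separated the groups and 6.7% had an unadjusted limma p under 0.05. Beside those shares, which also apply to the lists below, the low counts say little about p53 targets as a set.

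Of 20 genes for p53 and its regulators, 0 passed the limma threshold (1 at an unadjusted p under 0.05), and the median was 0.16, with 15 positive. Atr, a kinase that signals stalled replication to p53, was at 2543, 1840, 1587 and 1865 in KO and 1141, 834, 1179 and 1442 in WT. All KO values were above all WT values (log2 difference 0.77, SE 0.27, adjusted p by limma 0.533). Mdm4, the partner of Mdm2, differed by 0.38 on that scale (SE 0.24), and Usp7, which removes ubiquitin from Mdm2 and p53, by 0.22 (SE 0.24), with adjusted p by limma of 0.771 and 0.846.

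In the rest of the BCL2 family, the genes named here ranged from a mean of 45.5 per kilobase of exons (Bcl2l2) to 2616 (Bnip3). Of 4 other protectors tested, 0 passed (0 at an unadjusted p under 0.05), all 4 were negative, and the median was -0.70. Bcl2a1b, whose reads are hard to part from its near-identical copies, ranged from 0.00913 to 817 in KO and from 238 to 497 in WT. Bcl2l2 (BCL-W) lay between 105 and 401 in KO and between 158 and 279 in WT. Of 9 other death-promoting members tested, 0 passed (0 at an unadjusted p under 0.05), with a median of 0.04. Bnip3 was the most abundant of them per kilobase, with normalized values between 3288 and 10730 in KO and between 5104 and 6542 in WT. The log2 differences of Bnip3 (0.04, SE 0.27), Bnip3l (0.21, SE 0.21) and Bcl2l13 (0.43, SE 0.36) were small against their errors, and that of Bnip3 turned sign under quantile normalization and small-RNA scaling.

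Among 23 tested caspases and their regulators, 0 passed the limma threshold (2 at an unadjusted p under 0.05), with a median of -0.06. Birc3, an inhibitor of apoptosis that is a target of NF-kappaB, was at 4932, 5851, 3304 and 4748 in KO and 2113, 3148, 2312 and 3226 in WT (log2 difference 0.80, SE 0.23, adjusted p by limma 0.31). All KO values of Birc3 were above all WT values. Xiap, a caspase inhibitor and the most abundant of the list per kilobase, had a log2 difference of 0.05 (SE 0.21), which turned to -0.04 under quantile normalization.

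Among 19 CDK inhibitors and their partners in G1, 0 passed (1 at an unadjusted p under 0.05), with a median of 0.12. Cdk6, a kinase of early G1, was at 13070, 16646, 11183 and 16552 in KO and 9664, 7978, 9819 and 9842 in WT, all KO values above all WT values (log2 difference 0.61, SE 0.20, adjusted p by limma 0.461). Cdkn1b (p27), the closest relative of Cdkn1a in function, was the most abundant of the list per kilobase, at 9975, 12188, 12035 and 11650 in KO and 8904, 9164, 7756 and 10457 in WT. Its groups overlapped through WT library 4 (log2 difference 0.34, SE 0.19, adjusted p by limma 0.77).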

How the data were processed

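Bulk RNA was measured in 8 libraries, 4 per group. What the authors deposited is a gene-level signal, namely estimated reads divided by DESeq2 size factors, going by the name of their table and its values. Partek, DESeq2, STAR 2.7.8a and the mm39 build appear, without their roles, per the submitters' processing notes. Per the labels' protocols, ribosomal RNA was depleted before library preparation. Strand is not given in the sources used here. Between 79% and 84.1% of low values were whole multiples, within 0.02 reads, of 1 read's worth, so no count model was run. Fragments were estimated from the 9.1% to 44.4% of genes with a mean of 20 to 500 elsewhere that had under 3 reads, by a Poisson draw. Genes with a mean of at least 10, 16120 in all, were fitted as log2(value + 1) with limma 3.58.1 in R 4.3.3 (eBayes with trend), KO against WT, two-sided, with Benjamini-Hochberg adjustment and a threshold of 0.05. The fit was also run on simulated data with independent noise and with changes in abundant genes only. That run does not bear on pairing, mixed cells or genes of few fragments. Gene ends are the listed stop less 1, since stop minus start equals the annotated length for 98.5% of 19544 matched genes. Exon lengths are unions over GENCODE vM21 (GRCm38), where positions were not used. The members and lists were chosen with earlier results of these data known. The naming rule took the members, Mtdh, per list 2 genes by lowest p and the most abundant per kilobase, and the 5 genes most like Cdkn1a. Alternatives covered the pseudocount, filter, scaling (TMM, upper quartile, quantile, small RNAs left out), block, weights, trend and each library left out. One gene that this rule takes is not reported here.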

Additional observations from a re-analysis of the deposited data

Results flagged for a closer look

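A library stood far from the other 3 of its group in 5 of 64 groups of 4 examined, where chance alone gives about 1 in 20. The numbers in brackets give the gap to the nearest library as a share of the group's whole range. Bcl2 was at 1661 in WT library 2, where the rest of WT lay from 3548 to 3921 (0.835), and Cdk6 in the same library was at 7978 against 9664 to 9842 (0.904). KO library 3 had Bbc3 at 81.8 against 0 in the others (1.0), a value of few fragments. WT library 1 had Tnfrsf10b at 412 against 153 to 187 (0.868), and KO library 4 had Bcl2l2 at 401 against 105 to 120 (0.947).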

How the results depend on the processing

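Of all tested genes, 38 passed in the reported fit, against 63 with a pseudocount of 10, 15 with a minimum mean of 50, 112 with sample weights, and 7 to 70 when each library was left out. Without an intensity trend 7 were higher and 24 lower. Of the 10 members, 1 (Cdkn1a) passed with a pseudocount of 10 (log2 difference 1.27), sample weights (1.31) and robust hyperparameters (1.28), and 0 to 1 with a library left out, where Cdkn1a lay at 1.11 to 1.41. Mtdh, at -1.23, did not pass with a minimum mean of 50 (limma adjusted p = 0.0945), a replicate block (0.0627) or no trend (0.754), and lay at -1.38 to -1.04 in the omissions, with an adjusted p of up to 0.241. The cause was not tested. Signs turned for Bax (0.03 with a pseudocount of 10, -1.45 to 1.04 in the omissions), Bcl2 (-0.14 to 0.36 in the omissions), Bcl2l1 (-0.88 to 0.12), Bcl2l2 (0.19 with sample weights), Bnip3 (-0.06 with quantile normalization, -0.01 scaled to genes other than small RNAs, -0.26 to 0.31 in the omissions), Xiap (-0.04 with quantile normalization, -0.04 to 0.24 in the omissions), and the ratios of Mcl1 to Bcl2 (-0.22 to 0.49) and Cdkn1a to Pmaip1 (0.00 to 0.48). The relation of Bcl2 to CD8 markers had an r of 0.61 to 0.91 in the omissions and passed only without KO library 2 (adjusted p = 0.0159). Call counts of the 6 pathway lists were 0 in all 20 alternatives. The alternatives for ratios and relations were chosen after seeing the data.

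The labels do not say whether KO and WT libraries with equal replicate numbers were paired, and the reported fit treats them as unpaired. Deviations of same-numbered KO and WT libraries correlated at -0.01, 0.00, 0.13 and 0.08, and not every library correlated best with its own number. With so few libraries, such correlations cannot exclude a pairing. With a replicate block 0 genes passed limma's threshold (1101 at an unadjusted p under 0.05), and Cdkn1a had an adjusted p of 0.19. Depth limits Bax, Bbc3 and, in part, Bcl2l1, whose values rest on few fragments.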
